A study of Mus musculus with 15 samples.

Results

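The myeloid C-type lectins are a family of surface receptors with which macrophages, dendritic cells and neutrophils bind sugars and lipids of microbes and of damaged cells. The members described were fixed by name, as the rows of the count matrix whose Ensembl identifier belongs to Clec4a1, Clec4a2, Clec4b1, Clec4d, Clec4e, Clec4n, Clec5a, Clec7a, Clec10a and Mgl2. They were 10 of 53465 genes in the matrix, and 10 of 10 passed the low-count filter that left 13938 genes for testing. Bone marrow-derived macrophages (BMDMs), grown from mouse bone marrow for 7 days with M-CSF at 20 ng/ml, were left as control or treated for 24 h with IL-4, IL-4/IL-6, IL-13 or IL-13/IL-6, in which IL-4 was given at 10 ng/ml and both IL-13 and IL-6 at 40 ng/ml. Each of the 5 groups had 3 libraries of bulk RNA sequencing, 15 in all, with 17001352 to 18918686 counts per library. No group received IL-6 alone, so each effect of IL-6 was read on top of IL-4 or IL-13. The labels give no strain or age for the mice. The study calls the replicates of its IL-4 and IL-4/IL-6 sequencing biological, and describes its data in general as coming from repeated independent experiments, but whether these libraries came from separate animals or cultures is not given in the sources used here, so the p-values measure the spread between these libraries.

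The family divides by what its members signal. Dectin-1 (Clec7a) binds fungal beta-glucan, Dectin-2 (Clec4n) binds mannans, and Mincle (Clec4e) with its partner MCL (Clec4d) binds glycolipids such as those of mycobacteria. These receptors activate the kinase Syk, directly or through the adaptor Fcer1g, and then the Card9, Bcl10 and Malt1 complex, whereas MDL-1 (Clec5a) pairs with the adaptor Tyrobp (DAP12). DCIR (Clec4a2) carries an inhibitory motif that recruits phosphatases, and DCAR (Clec4b1) is its activating relative. MGL1 (Clec10a, CD301a) and MGL2 (Mgl2, CD301b) bind galactose and N-acetylgalactosamine and are widely used as markers of macrophages exposed to IL-4 or IL-13.

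The libraries were first checked against their labels. Macrophage markers (7 genes) summed to 10857 to 20818 normalized CPM (read counts scaled to a common library size by TMM) across the libraries. Adgre1, Csf1r and Cd68 had means of 844 CPM or more in every group, whereas Lyz2, the bulk of the sum, fell from 14924 CPM in control to 6852 with IL-4/IL-6, and Mertk fell from 143 CPM in control to 8.27 with IL-4 and 12.7 with IL-4/IL-6 (all called). Adgre1 rose from 844 CPM in control to 1288 with IL-4/IL-6 and 1454 with IL-13/IL-6. Fcgr1 had 155, 217 and 479 CPM in the same groups, and 101 with IL-4. Of the 7 markers, 3 were called higher and 4 lower than control with IL-4/IL-6 (35.4% and 37.5% of all genes). With IL-13/IL-6, 4 were higher and 3 lower (31.9% and 32.1%). Socs3, an IL-6 target, had a mean of 1.69 CPM with IL-4 and 129 with IL-4/IL-6. Control libraries were also higher in markers of other cell types: 10 granulocyte markers summed to 487 to 577 CPM in control against 10.9 to 26.3 CPM in the treated libraries, where Ly6g was at 0 counts and Mmp8 made up most of the remainder. The 5 monocyte markers summed to 174 to 185 CPM in control and 8.28 to 37.9 CPM in treated libraries, the 8 dendritic cell markers to 28.1 to 30.1 against 6.62 to 23.3 CPM, and the 8 lymphoid markers to 5.78 to 6.87 against 0.309 to 1.29 CPM. Within the dendritic list Flt3, Siglech and Ccr7 had means of at most 0.071 CPM in treated groups, while Batf3 rose from 3.60 CPM in control to 18.6 with IL-4, 10.1 with IL-4/IL-6 and 5.97 with IL-13. Cd209a, at 2.32 CPM in control, fell to 0.055 CPM with IL-4 and 0 counts with IL-13, and stood at 11.3 CPM with IL-4/IL-6, above control, and at 2.14 CPM with IL-13/IL-6. The part of this shift in any difference from control was not tested, and in bulk RNA fewer cells of a type cannot be told apart from less RNA per cell. Among replicates, IL-4/IL-6 replicate 2 and IL-13 replicate 1 stood apart from the others of their group, and calls that changed without them are given with both values.

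Against control, IL-4 raised 4 of the 10 lectin genes and lowered 5 (edgeR quasi-likelihood test, Benjamini-Hochberg adjusted p under 0.05 over all tested genes, the call used throughout). Mgl2, Clec10a, Clec4a2 and Clec4b1 rose, while Clec4n, Clec4e, Clec4d, Clec4a1 and Clec7a fell. Across all tested genes 32.1% were called higher and 35.9% lower in this comparison, so most genes of the transcriptome moved too. IL-13 against control raised 3 members, against 29% of all genes, and lowered 5, against 31.1%. The median log2 fold change of the 10 members was -0.15 with IL-4 and -0.52 with IL-13, beside -0.05 and -0.02 over all tested genes. These comparisons share their control libraries.

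When IL-6 was added to IL-4, 6 members fell and only Clec10a rose, beside 18.7% of all genes called lower and 20.7% higher. Under upper-quartile scaling the higher share of all calls in this comparison was 39%, against 52.6% under TMM. The median of the members was -0.84 against 0.04 over all tested genes, and it is the same with Clec4b1, which was at the counting floor, set to its bound. When IL-6 was added to IL-13, 5 members fell and 2 rose, beside 13.5% of all genes called lower and 12.1% higher, with a member median of -0.22 against 0.0054 over all genes. Without IL-13 replicate 1, 3 members were lower in place of 5, since Clec4d and Clec5a no longer passed. Some markers of other cells moved with IL-6 as well. The granulocyte sum was 24.6 to 26.3 CPM with IL-4 and 10.9 to 11.9 once IL-6 was added. On IL-13 it was 21.6 to 24.6 against 12.7 to 13 CPM. Both falls came mostly through Mmp8 (log2 -1.21 and -0.91, both called). Of the 9 granulocyte markers tested, 7 were not called with IL-6 on either cytokine. Unlike the other tested markers of this list, Mmp8 was not called against control with IL-4 or IL-13 (means of 22.6, 23.9 and 20.9 CPM). The monocyte sum was 21.3 to 22.5 CPM with IL-4 against 8.28 to 10.8 with IL-6 added. On IL-13 it was 22.8 to 26.2 against 24.7 to 37.9 CPM. Ccr2 was called lower on both, at means of 14.8 and 3.66 CPM on IL-4 and at log2 -0.46 on IL-13. F13a1 went the other way, from a mean of 1.89 to 4.17 CPM on IL-4 and from 2.84 to 14.6 CPM on IL-13. Of the 5 monocyte markers, 2 were called lower and 1 higher on IL-4, and 1 lower and 1 higher on IL-13. The part of these markers in the IL-6 differences of the lectin genes was not tested.

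The IL-6 effect itself was compared between the backgrounds with an interaction term. It was lower with IL-4 than with IL-13 for 6 members and higher for 0, beside 4.42% of all genes called lower and 3.22% higher. Under upper-quartile scaling the higher share of all calls was 31.7%, against 42.2% under TMM. The 4 members not called also had negative estimates, -0.12 for Clec7a (adjusted p 0.61), -0.21 for Clec4n (0.878), -0.46 for Clec10a (0.129) and -0.99 for Clec4e (0.0765), all by edgeR. The interval of the Clec4e difference, -1.67 to -0.31, did not include 0, but its p missed the threshold after adjustment over all genes. The Clec10a difference passed without IL-4/IL-6 replicate 2 (-0.64, adjusted p 0.00289, edgeR), without a low-count filter (-0.51, 0.00208) and with the replicate number as a block (-0.47, 0.0477).

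**Figure D1:**
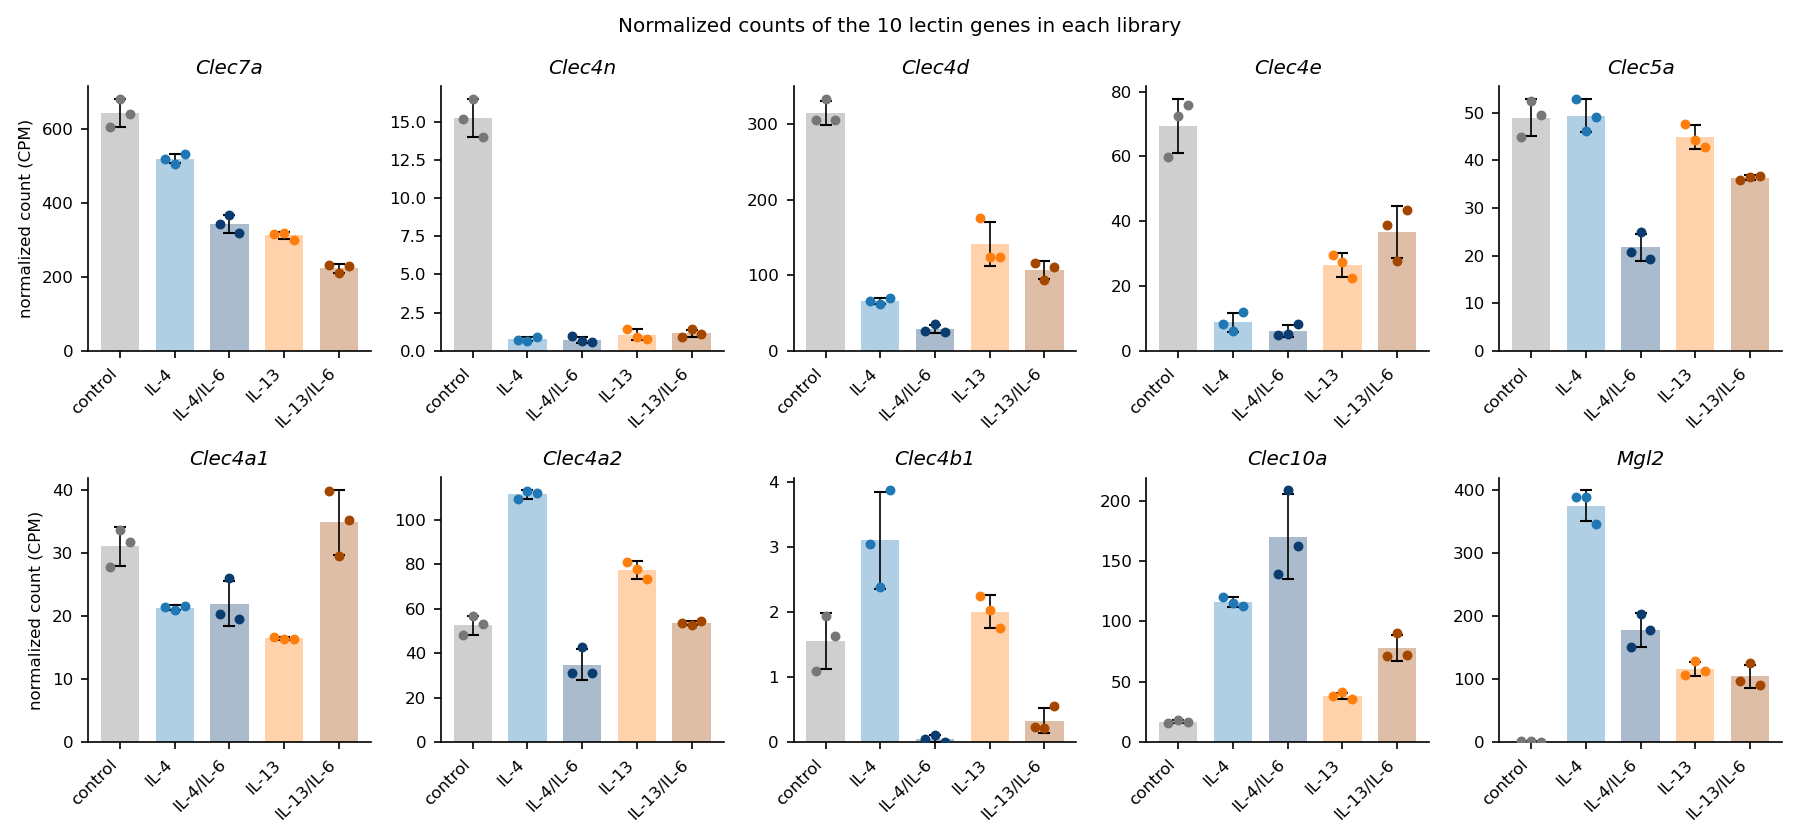
Normalized counts (CPM, linear axes that start at 0) of the 10 lectin genes in each of the 15 libraries; points are libraries, bars group means and error bars SD (n = 3). Mgl2 rose from a mean of 1.59 in control to 375 with IL-4, Clec10a was highest with IL-4/IL-6 at 170, and Clec4n stayed at 1.45 CPM or less in each treated library.

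The order of levels within a group was read per length, in FPKM as the authors deposited it. For these genes that length is the union of all annotated exons, so the order between genes depends on the annotation too. Clec7a was the most abundant member in all 5 groups, with a mean of 254 ± 12.99 FPKM in control, 199 ± 4.03 with IL-4, 123 ± 3.76 with IL-4/IL-6, 121 ± 3.76 with IL-13 and 82.7 ± 3.73 with IL-13/IL-6 (SD, n = 3). In control Clec4d came next at 205 ± 8.86 FPKM, and Mgl2 was last at 0.794 ± 0.152 FPKM. With IL-4 Mgl2 stood second at 181 ± 12.6 FPKM, and its range lay below that of Clec7a. Clec4d, Clec10a and Clec4a2 followed at 41.9, 40.5 and 38.4 FPKM, and the range of Clec10a overlapped those of both others, while the ranges of Clec4d and Clec4a2 did not overlap. With IL-4/IL-6 the order of the leading members was Clec7a, Mgl2 (79.7 FPKM) and Clec10a (55.2 FPKM), each range clear of the next. With IL-13 all neighbours were separated, and with IL-13/IL-6 the ranges of Clec4d and Mgl2 overlapped at means of 65.1 and 49.0 FPKM. Clec4n, seventh in control at 11.2 FPKM, was ninth or last in every treated group, at 0.485 to 0.792 FPKM.

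**Figure D2:**
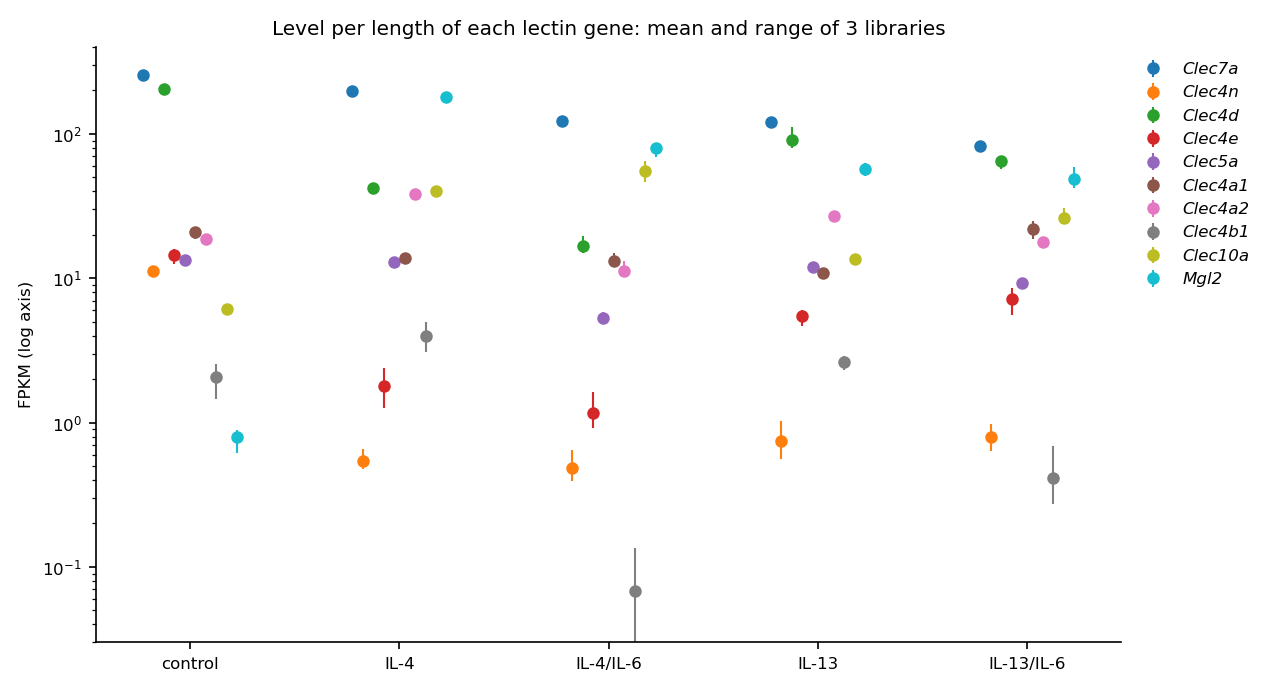
Level per length (FPKM, log axis) of the 10 genes in each group; points are means and vertical lines the range of 3 libraries. Clec7a is highest in each group, Mgl2 moves from the bottom of the order in control (0.794) to second place with IL-4 (181), and one IL-4/IL-6 library with Clec4b1 at 0 falls below the axis.

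The galactose-binding pair, Mgl2 and Clec10a, rose with both cytokines but responded differently to IL-6. Mgl2 had 1.77, 1.77 and 1.23 CPM in the control libraries (22 to 34 counts), 389, 389 and 346 CPM with IL-4, and 107, 128 and 113 CPM with IL-13. The 3 groups did not overlap, and the log2 fold change over control was 7.87 ± 0.18 (SE, adjusted p 3.39e-15, edgeR) with IL-4 and 6.17 ± 0.18 (6.26e-14) with IL-13. With IL-4/IL-6 Mgl2 had 150, 203 and 178 CPM, which lay below every IL-4 library. The fall was 2.11-fold (log2 -1.08 ± 0.12, adjusted p 1.11e-06, edgeR). With IL-13/IL-6 it had 97.9, 125 and 91.3 CPM, and these overlapped the IL-13 libraries (log2 -0.14, interval -0.40 to 0.11, adjusted p 0.449).

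Clec10a had 16.0, 18.6 and 16.7 CPM in control, 120, 115 and 113 with IL-4, and 139, 209 and 163 with IL-4/IL-6. Every IL-4/IL-6 library exceeded every IL-4 library, by 1.47-fold on average (log2 0.55 ± 0.12, adjusted p 0.00113, edgeR). The highest of them was the replicate that stood apart, and without it the log2 difference was 0.37, still called. With IL-13 Clec10a had 38.1, 41.3 and 36.2 CPM and with IL-13/IL-6 71.7, 90.0 and 71.9 CPM, again without overlap. The added IL-6 raised it 2.02-fold there, a log2 change of 1.01 ± 0.12 (adjusted p 6.34e-06, edgeR). Over control, Clec10a was 6.80-fold higher with IL-4, 9.97-fold with IL-4/IL-6, 2.26-fold with IL-13 and 4.56-fold with IL-13/IL-6, and all 4 differences were called.

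Since library scaling cancels in a ratio of genes within a library, the ratio of Mgl2 to Clec10a in FPKM was also taken. It was 0.153, 0.132 and 0.103 in control, 4.48, 4.67 and 4.25 with IL-4, and 3.87, 4.30 and 4.30 with IL-13. The IL-4 and IL-13 ratios overlapped (difference in log2 ratio 0.10, two-sided exact permutation p 0.3, n = 3). With IL-4/IL-6 the ratio was 1.49, 1.35 and 1.52, and with IL-13/IL-6 1.89, 1.93 and 1.76. Each was below every library of the same cytokine without IL-6, by 3.08-fold with IL-4 and by 2.23-fold with IL-13 (two-sided exact permutation p 0.1 each, the smallest that 3 against 3 libraries allow). The balance between the pair therefore moved toward Clec10a with IL-6 on either cytokine.

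Mgl2 and Clec10a are near neighbours of like sequence, at chr11:70130329-70137550 and chr11:70156197-70170834 (GRCm38, plus strand), within 40.5 kb. Of the 50-base stretches in Mgl2 transcripts, 12.2% also occur in Clec10a transcripts, and how the authors' counting treated such reads is not given in the sources used here. The longest identical coding run, shown to mark where the sequence alone does not tell the genes apart, is 183 bases. It lies in exons 6 to 8 of the Clec10a transcript Clec10a-209 (chr11:70169822-70170189) and exons 7 to 9 of Mgl2-205 (chr11:70136337-70136699), with 152 of its bases in a single exon of each gene.
Clec10a and Mgl2: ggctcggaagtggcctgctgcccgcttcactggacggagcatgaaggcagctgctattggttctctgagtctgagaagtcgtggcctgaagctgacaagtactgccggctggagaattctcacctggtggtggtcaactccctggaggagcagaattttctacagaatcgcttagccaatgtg
With the counts of both genes summed, the change with IL-6 was -0.50 on the log2 scale with IL-4 (adjusted p 0.00244) and 0.24 with IL-13 (adjusted p 0.155), by edgeR. The opposite moves of Mgl2 and Clec10a with IL-4/IL-6 rest on the genes counted apart. A sum cannot show such moves by construction, so it does not test the part of shared reads in them.

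**Figure D3:**
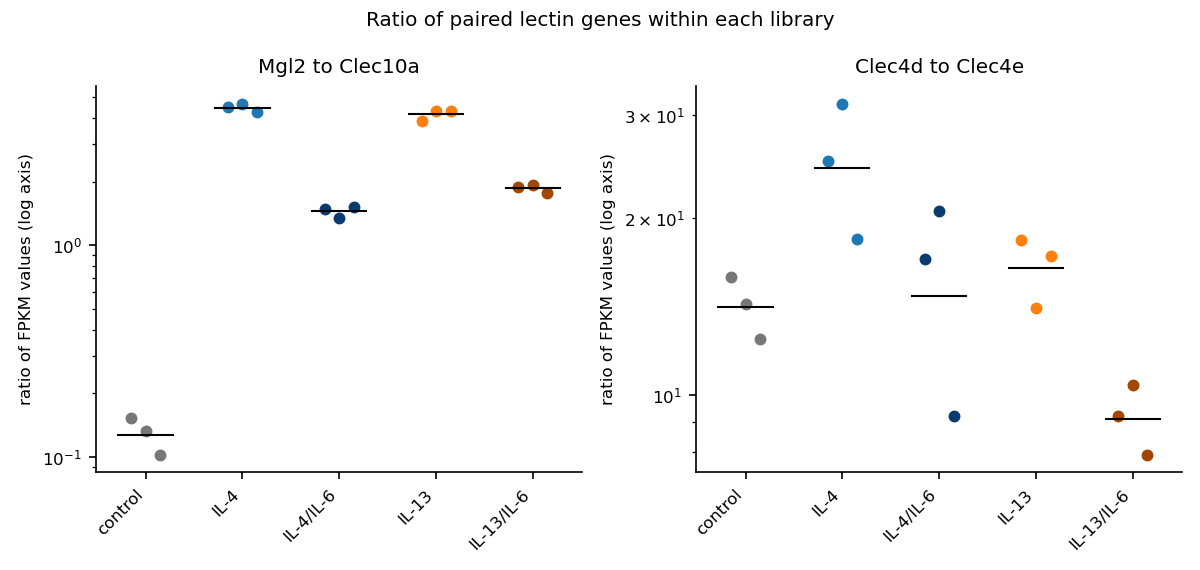
Ratio of FPKM values (log axes) of Mgl2 to Clec10a and of Clec4d to Clec4e in each library, with the geometric mean of each group as a line. The Mgl2 to Clec10a ratio lies between 4.25 and 4.67 with IL-4 and between 1.35 and 1.52 with IL-4/IL-6, while the Clec4d to Clec4e ratios of these groups overlap.

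Clec7a, the beta-glucan receptor, fell with each treatment. It had 607, 682 and 640 CPM in control, 520, 507 and 533 with IL-4, and 317, 319 and 301 with IL-13. These groups did not overlap, and the fall was 1.24-fold with IL-4 (adjusted p 0.000583) and 2.06-fold with IL-13 (6.28e-10, edgeR). IL-6 lowered it further, to 343, 368 and 320 CPM with IL-4 and to 232, 210 and 229 CPM with IL-13. The log2 change with IL-6 was -0.60 ± 0.07 on IL-4 and -0.48 ± 0.07 on IL-13 (SE, both called). The difference between these IL-6 effects was -0.12, with an interval from -0.31 to 0.08. Clec7a was 1.66-fold higher with IL-4 than with IL-13 (log2 0.74 ± 0.07, adjusted p 7.02e-07, edgeR). Its annotation (chr6:129461591-129472779, minus strand, GRCm38) gives the biotype polymorphic pseudogene, and its transcripts share no 50-base stretch with another gene.

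Clec4n, which encodes Dectin-2, fell steeply from control with every treatment. It had 15.2, 16.5 and 14.02 CPM in control and 0.576 to 1.45 CPM in the 12 treated libraries (10 to 27 counts each). The log2 change was -4.31 ± 0.22 with IL-4, -3.87 ± 0.21 with IL-13, -4.37 ± 0.23 with IL-4/IL-6 and -3.72 ± 0.21 with IL-13/IL-6, all called. The treated groups overlapped one another, and added IL-6 gave -0.06 on IL-4 (interval -0.74 to 0.62) and 0.15 on IL-13 (interval -0.43 to 0.73). Without IL-4/IL-6 replicate 2 the former was 0.0022. Among all tested genes, the patterns most like that of Clec4n over the 15 libraries (Pearson r of log2 CPM) were those of Camp (0.991), Ccr7 (0.988) and Cxcr1 (0.987). Camp is a granulocyte marker and Ccr7 a dendritic cell marker of the lists above, with means of 11.6 and 8.42 CPM in control and at most 2 counts in any treated library. The part of other cells in the control level of Clec4n was not tested.

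Clec4d and Clec4e, which encode the partners MCL and Mincle, lie next to each other at chr6:123262111-123275265 and chr6:123281789-123289870 (GRCm38). Clec4d had 306, 333 and 305 CPM in control, 66.1, 62.6 and 70.2 with IL-4, and 175, 124 and 124 with IL-13. It fell 4.75-fold with IL-4 and 2.23-fold with IL-13 (both called), and it was lower with IL-4 than with IL-13 by 1.09 ± 0.13 on the log2 scale (adjusted p 2.31e-05, edgeR). With IL-4/IL-6 it fell again, to 26.1, 35.1 and 24.6 CPM, without overlap with IL-4 (log2 -1.21 ± 0.14). With IL-13/IL-6 it had 116, 93.1 and 111 CPM, a change of -0.41 ± 0.13 (adjusted p 0.0313). This call was lost without IL-13 replicate 1 (-0.23, adjusted p 0.152, edgeR) or without IL-13/IL-6 replicate 2 (-0.32, adjusted p 0.136).

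Clec4e had 59.8, 72.5 and 75.8 CPM in control, 8.19, 6.20 and 11.8 with IL-4, and 29.6, 27.4 and 22.4 with IL-13. The fall over control was 7.93-fold with IL-4 and 2.62-fold with IL-13, and IL-4 lay below IL-13 in every library (log2 -1.60 ± 0.22, adjusted p 7.60e-05, edgeR). With IL-4/IL-6 it had 4.76, 5.30 and 8.29 CPM, which overlapped IL-4 (-0.51, interval -1.05 to 0.02, adjusted p 0.118). With IL-13/IL-6 it had 38.9, 27.8 and 43.6 CPM, which overlapped IL-13 (0.47, interval 0.05 to 0.89, adjusted p 0.0956). These calls changed with the libraries and the processing. The IL-4/IL-6 difference passed without IL-4 replicate 2 (-0.73, adjusted p 0.0363) or IL-4/IL-6 replicate 3 (-0.81, 0.0205), and the IL-13/IL-6 difference without IL-13/IL-6 replicate 2 (0.63, 0.0329), all by edgeR. The interaction term passed when any of these 3 libraries was left out, at -1.16 to -1.28, and under DESeq2 (-0.99, adjusted p 0.0252). Without a low-count filter all 3 of these Clec4e differences passed, and the IL-13/IL-6 difference also did in a fit of only the libraries compared (0.47, adjusted p 0.0486, edgeR).

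In these libraries the balance of the pair shifted with IL-6 on IL-13, while on IL-4 the groups overlapped. The ratio of Clec4d to Clec4e in FPKM was 18.4, 14.1 and 17.2 with IL-13 and 9.23, 10.4 and 7.92 with IL-13/IL-6, a 1.80-fold fall without overlap (two-sided exact permutation p 0.1, n = 3, the smallest possible). With IL-4/IL-6 the ratios, 17.04, 20.6 and 9.21, overlapped those with IL-4, 25.1, 31.3 and 18.4 (exact permutation p 0.2). With IL-4/IL-6 both genes were lower than with IL-13/IL-6, Clec4d by 3.73-fold and Clec4e by 6.0-fold, and no library of either group overlapped.

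Clec5a (MDL-1) was the member that differed least from control with a single cytokine. It had 44.9, 52.5 and 49.5 CPM in control, 52.9, 46.1 and 49.1 with IL-4, and 47.7, 44.1 and 42.8 with IL-13. The intervals of the log2 change were -0.18 to 0.20 with IL-4 and -0.32 to 0.06 with IL-13, and the groups overlapped. With IL-4/IL-6 it fell to 20.8, 24.9 and 19.4 CPM, below every IL-4 library (2.28-fold, log2 -1.19 ± 0.09, adjusted p 1.62e-08, edgeR). With IL-13/IL-6 it had 35.7, 36.6 and 36.8 CPM, a log2 change of -0.30 ± 0.09 (adjusted p 0.0198) that no longer passed without IL-13 replicate 1 (-0.26, adjusted p 0.0556) or IL-13/IL-6 replicate 1 (-0.30, 0.0531). The IL-6 effect on Clec5a was lower with IL-4 by 0.88 ± 0.13 on the log2 scale (adjusted p 0.00027, edgeR). Tyrobp, whose product is the adaptor of MDL-1, fell by 0.92 ± 0.11 with IL-4/IL-6 and by 0.42 ± 0.11 with IL-13/IL-6 (both called). The difference between these Tyrobp effects did not pass (-0.50, adjusted p 0.0638, edgeR).

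Clec4a1, Clec4a2 and Clec4b1 of the DCIR and DCAR group moved in different directions. Clec4a2 had 48.1, 56.5 and 52.9 CPM in control, 109, 113 and 112 with IL-4, and 81.0, 78.0 and 73.1 with IL-13. It rose 2.12-fold with IL-4 and 1.47-fold with IL-13, without overlap. With IL-4/IL-6 it fell to 31.0, 42.7 and 31.1 CPM, below control and 3.19-fold below IL-4 (log2 -1.67 ± 0.10, adjusted p 5.38e-10, edgeR). With IL-13/IL-6 it had 53.6, 52.6 and 54.3 CPM, 1.45-fold below IL-13 and not apart from control (log2 0.03, interval -0.18 to 0.24).

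Clec4a1, a close relative of Clec4a2, had the opposite sign in several comparisons. It had 27.7, 33.6 and 31.8 CPM in control, 21.5, 20.9 and 21.6 with IL-4, and 16.7, 16.3 and 16.3 with IL-13, and both falls were called (log2 -0.54 ± 0.12 and -0.92 ± 0.12). IL-6 on IL-13 raised it 2.11-fold, to 39.7, 29.5 and 35.1 CPM (log2 1.08 ± 0.12, adjusted p 1.92e-06, edgeR). IL-6 on IL-4 gave 20.2, 26.0 and 19.5 CPM, overlapping IL-4 (log2 0.04, interval -0.21 to 0.29, which became -0.05 under upper-quartile scaling and -0.11 without IL-4/IL-6 replicate 2, neither called). The difference between the IL-6 effects was -1.04 ± 0.17 (adjusted p 0.000624, edgeR).

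Clec4b1 was the least abundant of this group. It had 1.09, 1.94 and 1.63 CPM in control (21 to 35 counts), 3.05, 2.38 and 3.87 with IL-4 and 2.25, 2.03 and 1.75 with IL-13. The rise with IL-4 passed (log2 1.00 ± 0.30, adjusted p 0.00672, edgeR), and that with IL-13 did not (0.37, adjusted p 0.31). IL-4/IL-6 libraries held 1, 2 and 0 counts of Clec4b1. Against a floor of 3 counts per library, the level was at least 17.9-fold lower than with IL-4 and at least 8.97-fold lower than in control. With IL-13/IL-6 the libraries held 4, 4 and 10 counts, 5.89-fold below IL-13 (adjusted p 8.52e-05, edgeR). Between the groups that received IL-6, the fitted Clec4b1 difference was -2.40, called at an adjusted p of 0.0239, but the call was lost when IL-4/IL-6 replicate 1 (-2.40, adjusted p 0.0628), IL-4/IL-6 replicate 3 (-1.88, 0.0709) or IL-13/IL-6 replicate 3 (-1.84, 0.129) was left out, all by edgeR. Without IL-4/IL-6 replicate 2 it was -3.27 and still called. Of the 50-base stretches of Clec4b1, 8.68% also occur in Clec4a2, so that some reads could be split between them.

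**Figure D4:**
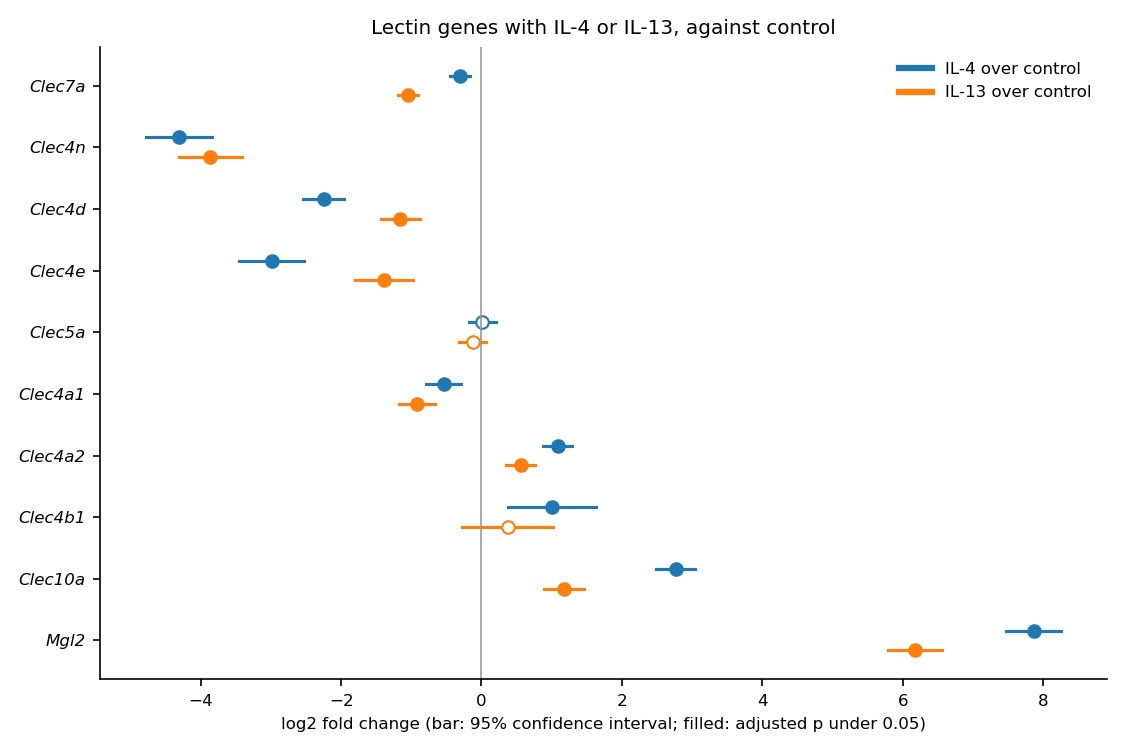
Log2 fold change over control with IL-4 and with IL-13 for the 10 genes, with 95% confidence intervals as lines; filled points passed the adjusted threshold. Mgl2 (7.87 and 6.17) and Clec4n (-4.31 and -3.87) mark the ends of the range, and both intervals of Clec5a include 0.

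**Figure D5:**
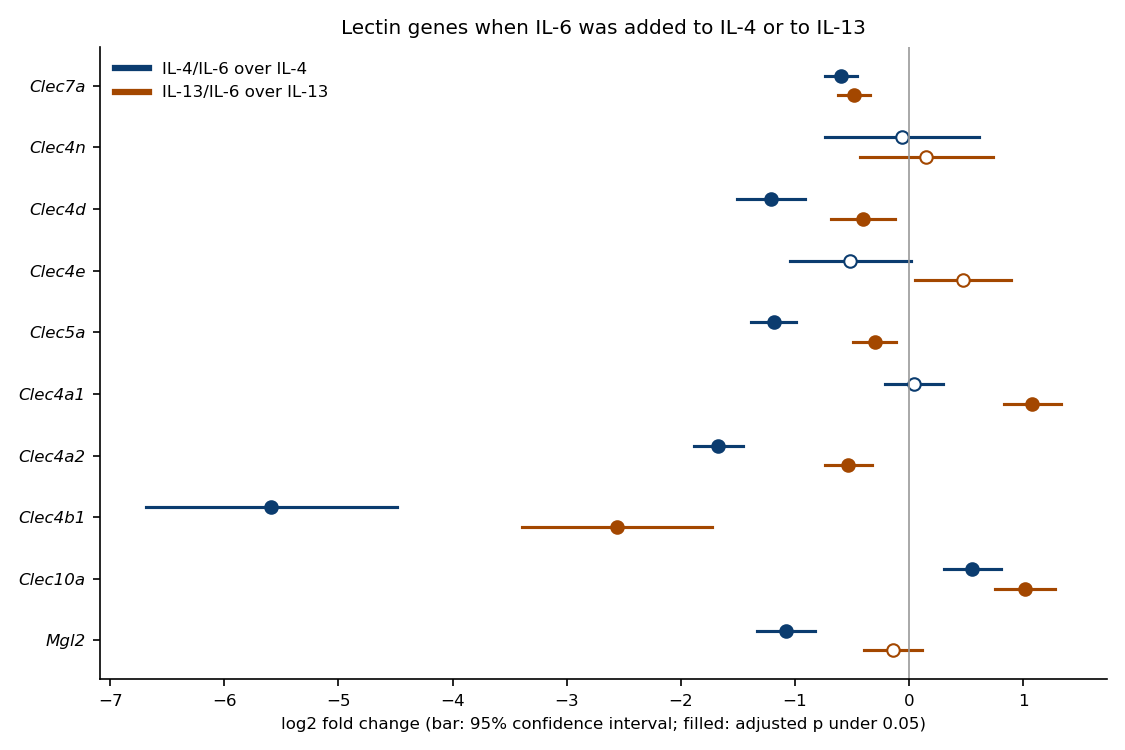
Log2 fold change when IL-6 was added to IL-4 or to IL-13, drawn as in the plot against control. Clec10a is higher on both backgrounds (0.55 and 1.01), Clec4a1 only with IL-13 is called higher, and the fitted Clec4b1 value with IL-4 rests on 1, 2 and 0 counts.

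With both cytokines in hand, the groups with IL-6 were also set against control and against each other. IL-4/IL-6 differed from control for all 10 members, 8 lower and 2 higher, beside 37.5% of all genes called lower and 35.4% higher. IL-13/IL-6 lowered 6 members and raised 2, Clec10a and Mgl2, beside 32.1% of all genes lower and 31.9% higher. Clec4a1 (0.17, adjusted p 0.218) and Clec4a2 did not pass with IL-13/IL-6, though Clec4a1 passed as higher without IL-13/IL-6 replicate 2 (0.28, adjusted p 0.0461, edgeR). Mgl2 remained 111-fold above control with IL-4/IL-6 (log2 6.79 ± 0.18) and 65.4-fold above with IL-13/IL-6 (log2 6.03 ± 0.18). The comparisons with control share its 3 libraries, and the shift of granulocyte and monocyte markers given above runs with each of them.

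IL-4 at 10 ng/ml and IL-13 at 40 ng/ml differ in dose as well as in identity, which cannot be told apart here. IL-4 gave higher levels of 4 members (Mgl2, Clec10a, Clec7a and Clec4a2) and lower levels of 2 (Clec4d and Clec4e), beside 5.16% of all genes higher and 7.61% lower. Mgl2 was 3.23-fold and Clec10a 3.01-fold higher with IL-4 (log2 1.69 ± 0.12 and 1.59 ± 0.12). Clec4a1 missed the threshold at 0.37 ± 0.12 (adjusted p 0.0526, edgeR), though no library of the 2 groups overlapped, and it passed under 12 of 23 alternatives, among them DESeq2 (0.38, adjusted p 0.0289), both other scalings, and the fits without IL-4/IL-6 replicate 2 (0.38, adjusted p 0.0137, edgeR) or IL-13 replicate 1 (0.39, adjusted p 0.0492). IL-4/IL-6 against IL-13/IL-6 gave 3 members higher (Mgl2, Clec10a and Clec7a) and 6 lower, beside 15.8% of all genes higher and 15.5% lower. Clec4a2 thus changed side, higher with IL-4 than with IL-13 (log2 0.52 ± 0.10) and lower once IL-6 was present (log2 -0.62 ± 0.10). Markers of other cells differed between the groups with IL-6 too. Ccr2 had means of 3.66 CPM with IL-4/IL-6 and 13.6 with IL-13/IL-6, and F13a1 had 4.17 and 14.6. Batf3 and Cd209a were higher with IL-4/IL-6 (log2 1.37 and 2.40, both called). The part of these markers in the lectin differences was not tested.

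The receptors were then set beside 22 genes of their signaling route, all 22 of which were tested. With IL-4, 14 of them were lower and 3 higher than control, with a median of -0.41, beside 35.9% of all genes lower and 32.1% higher, and with IL-13 14 were lower and 2 higher, with a median of -0.34, beside 31.1% and 29%. Syk, the kinase that Dectin-1 and the Fcer1g-coupled receptors use, fell from a mean of 591 CPM in control to 226 with IL-4 and 250 with IL-13 (both called). Fcer1g did not pass in any of these comparisons, at means of 556 to 650 CPM in the 5 groups. IL-6 on IL-4 lowered 7 genes of the route and raised 3 (18.7% and 20.7% of all genes), and IL-6 on IL-13 lowered 5 and raised 5 (13.5% and 12.1%). Malt1 fell with IL-6 on both (log2 -1.80 ± 0.13 and -1.07 ± 0.13), as did Ptpn6, which encodes the phosphatase SHP-1 (log2 -0.74 and -0.29), while Card9 rose (log2 0.52 and 0.25). The IL-6 effect was lower with IL-4 than with IL-13 for 6 of the 22 genes, among them Malt1 (log2 -0.73 ± 0.18) and Ptpn6 (-0.44 ± 0.10), and higher for 0, beside 4.42% and 3.22% of all genes.

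Of 28 other C-type lectin genes, 13 passed the low-count filter. With IL-4, 8 of the 13 were lower than control and 1, the scavenger receptor Colec12, was higher (log2 0.94 ± 0.08), and with IL-13 9 were lower and 2 higher, where all genes gave 35.9% lower and 32.1% higher with IL-4 and 31.1% and 29% with IL-13. With IL-6 on IL-4, 5 were lower and 2 higher (18.7% and 20.7% of all genes), and on IL-13 3 were lower and 3 higher (13.5% and 12.1%). Clec12a, an inhibitory receptor, fell from a mean of 322 CPM with IL-4 to 45.1 with IL-4/IL-6 (log2 -2.84 ± 0.10) and from 471 with IL-13 to 233 with IL-13/IL-6 (log2 -1.02 ± 0.09). Clec4a3, a neighbour of the Clec4a members, moved like Clec4a1 in having a lower IL-6 effect with IL-4 than with IL-13 (difference -1.03 ± 0.18, adjusted p 0.00114, edgeR). Clec4b2 had 28 to 35 counts in the control libraries and 0 in all treated ones.

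Patterns over the 15 libraries were compared as Pearson r of log2 CPM, a description only, since the 15 points share their groups and the same fit. Among the members themselves, the pairs most alike were Clec4b1 with Clec5a (0.93), Clec4d with Clec4e (0.92) and Clec4a2 with Clec4b1 (0.88), and the most opposed was Clec4n with Mgl2 (-0.98). Among all tested genes, Mgl2 was most like Dctd (0.993), Mars (0.987) and Slc1a5 (0.987), and Clec10a was most like Casp6, St6galnac4 and Rars (0.979 to 0.981). Clec4d was most like Retreg1 (0.991) and Clec4e like Cd93 (0.963). Clec4a2 was most like Evl (0.976), Clec5a like Gpx1 (0.977) and Clec4b1 like Cd300c2 (0.975), a gene that stood second for Clec5a as well. Clec7a and Clec4a1 had looser company, with Hadhb (0.941) and Hmgcs1 (0.914) as the closest genes.

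Promoters were read because IL-4 and IL-13 act through STAT6 and IL-6 through STAT3, which bind spaced TTC and GAA elements. RefSeq windows (GRCm38.p6) of 250 bases before the start site were at hand for 8 of the 10 members and were searched on both strands for TTCNNNNGAA, the spacing preferred by STAT6, and for TTCNNNGAA, the spacing of most other STAT proteins. The first occurs in 5.85% and the second in 7.02% of 32851 promoter windows of this length. TTCNNNNGAA was found in Clec7a, Clec5a and Clec4a1, and TTCNNNGAA in Clec4a2, while Mgl2, Clec4b1, Clec4d and Clec4e held neither. The windows below are those of Mgl2, the member with the largest rise, of Clec7a, which fell with each treatment, and of Clec4a1 and Clec4a2, relatives with opposed responses. Matches are in capitals; they describe the letters in these windows and not binding, and the absence of a match says nothing of the factor.
Mgl2 (chr11:70130107-70130356, plus strand): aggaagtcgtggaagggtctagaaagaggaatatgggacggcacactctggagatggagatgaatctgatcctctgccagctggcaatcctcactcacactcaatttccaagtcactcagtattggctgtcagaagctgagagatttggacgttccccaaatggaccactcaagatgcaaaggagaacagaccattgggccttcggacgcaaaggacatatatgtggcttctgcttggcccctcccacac
Clec7a (chr6:129472780-129473029, minus strand): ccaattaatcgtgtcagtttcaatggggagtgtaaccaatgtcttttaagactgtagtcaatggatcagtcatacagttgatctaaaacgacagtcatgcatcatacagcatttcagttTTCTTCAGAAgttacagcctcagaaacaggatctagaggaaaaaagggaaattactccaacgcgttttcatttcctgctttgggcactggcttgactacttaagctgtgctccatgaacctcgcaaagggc
Clec4a1 (chr6:122921598-122921847, plus strand): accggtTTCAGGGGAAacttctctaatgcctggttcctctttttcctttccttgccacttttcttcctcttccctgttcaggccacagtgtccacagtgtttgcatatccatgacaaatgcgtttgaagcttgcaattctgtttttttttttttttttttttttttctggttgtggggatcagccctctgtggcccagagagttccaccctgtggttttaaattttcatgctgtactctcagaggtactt
Clec4a2 (chr6:123122440-123122689, plus strand): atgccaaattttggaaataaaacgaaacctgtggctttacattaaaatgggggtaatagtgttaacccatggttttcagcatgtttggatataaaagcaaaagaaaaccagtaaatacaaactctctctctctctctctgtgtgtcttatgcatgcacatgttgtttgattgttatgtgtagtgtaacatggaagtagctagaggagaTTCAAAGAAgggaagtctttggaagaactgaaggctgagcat
The first base of the match lies 131 bases before the start site in Clec7a, 244 in Clec4a1 and 42 in Clec4a2. Clec7a had another listed start site, and the same match begins 125 bases before that one.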

How the data were processed

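BMDM RNA was sequenced and processed by a service company. The submitters' processing notes name CASAVA, Bowtie2 2.2.3, HISAT2 2.1.0, TopHat2, DESeq2 and GRCm38; which aligner made the counts, the counting tool and its use of strand are not given in the sources used here. The authors deposited whole-number counts for 53465 genes and FPKM values for 26080 genes. The lengths implied by FPKM matched exon-union lengths of the GENCODE annotation of GRCm38 for all 10 members. Counts of the 15 libraries were fitted in one model with a mean per group (edgeR 4.0.16, TMM, filterByExpr with minimum count 10, quasi-likelihood F-test, 10 residual degrees of freedom), and p-values were adjusted over 13938 genes. Normalized CPM used the TMM factors. Errors are SE unless marked, intervals are 95%, and floors cover counting error only. FPKM was used for levels between genes and for ratios, with exact permutation tests. On counts simulated for IL-4 over control (13522 genes tested), 81 of 97 genes changed 2-fold and 96 of 100 changed 4-fold were recovered. In the same simulation 14 unchanged genes were called. Named genes were the members, fixed lists of the signaling route, its cytokine targets, other lectins and cell markers, and the 3 genes most like each member. The members and lists were chosen with earlier results of these data known. Alternatives were DESeq2 1.42.0, other scaling, filters and libraries, and paralog sums.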

Additional observations from a re-analysis of the deposited data

Results flagged for a closer look

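For 6 members the effect of IL-6 differed between the IL-4 and IL-13 backgrounds by the interaction term (edgeR quasi-likelihood test, adjusted over all tested genes, n = 3 libraries a group), all 6 lower with IL-4, beside 4.42% of all genes called lower and 3.22% higher. For Clec4a1 the difference was -1.04 (adjusted p 0.000624), from a log2 change with IL-6 of 0.04 on IL-4 and 1.08 on IL-13. For Clec4a2 it was -1.14 (adjusted p 4.65e-05), from -1.67 and -0.53. For Clec4b1 it was -3.03 (adjusted p 0.0283), from fitted values of -5.59 and -2.56 that rest on 0 to 10 counts per library with IL-6, and the call was lost when any one of 5 libraries was left out (-2.47 to -3.03, adjusted p 0.0525 to 0.142), while without IL-4/IL-6 replicate 2 the estimate was -3.90. For Clec4d it was -0.81 (adjusted p 0.0139), from -1.21 and -0.41, for Clec5a -0.88 (adjusted p 0.00027), from -1.19 and -0.30, and for Mgl2 -0.94 (adjusted p 0.00161), from -1.08 and -0.14.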

How the results depend on the processing

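Of the log2 fold changes of members recomputed under the alternatives, 2011 kept their direction and their side of the threshold, 31 passed only under the alternative, 16 no longer passed and 25 changed sign. Of the sign changes, 11 came from summing the counts of close paralogs, which by construction replaces a gene by the total of its pair or group. With that sum Clec4a1 was 0.38 in IL-4 over control, -0.9965 for IL-6 added to IL-4, and -0.17 in IL-13/IL-6 over control; Clec4a2 was -0.23 in IL-13 over control, 0.059 in IL-13/IL-6 over IL-13 and -0.17 in IL-13/IL-6 over control. Clec4b1, summed with Clec4b2, was -0.071 in IL-4 over control and -0.70 in IL-13 over control, Clec10a was -0.50 for IL-6 added to IL-4, and in IL-13/IL-6 over IL-13 Clec4e was -0.23 and Mgl2 0.24. The other sign changes were in estimates near 0 that did not pass, and the cause was not tested. Clec5a in IL-4 over control was -0.026 with a minimum count of 50 and -0.033 to 0.10 with one library left out. For IL-6 added to IL-4, Clec4a1 was -0.049 with upper-quartile scaling, -0.0021 in a fit of only the libraries compared and -0.11 to 0.098 with one library left out. Clec4a2 in IL-13/IL-6 over control was -0.023 with upper-quartile scaling, -0.020 with a minimum count of 50 and -0.032 to 0.086 with one library left out. With one library left out, Clec4n ranged from -0.34 to 0.079 for IL-6 on IL-4 and from -0.039 to 0.46 for IL-6 on IL-13.

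Counts of called members moved by over 1.5 times when a log2 fold change above 1 was also required, a stricter rule: IL-4 over control then had 3 lower (16.1% of all genes under the same rule), IL-6 added to IL-4 had 0 higher (4.34%), IL-13/IL-6 over IL-13 3 in all (7.25%) and 1 lower (4.19%), IL-4/IL-6 over control 5 lower (19.9%), IL-4 over IL-13 2 higher (1.05%), IL-4/IL-6 over IL-13/IL-6 4 in all (6.17%) with 1 higher (2.23%) and 3 lower (3.94%), and the interaction 3 in all (1.88%), 3 of them lower (1.08%). With one library left out, the lower members in IL-13/IL-6 over IL-13 numbered 3 to 5, with 3 without IL-13 replicate 1. Replicate numbers did not pair the samples (r of deviations from -0.276 to 0.163 between groups), and a fit with the replicate number as a block changed a single call, the Clec10a interaction (-0.47, adjusted p 0.0477, edgeR). Clec4n and Clec4b1 in treated libraries rest on 0 to 71 counts, and the power to see differences between those groups at such counts was not simulated. The fit without control libraries was added after seeing the data.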

Other observations

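Of 12 genes of cytokines, chemokines and other factors that these receptors are known to induce, 8 were tested. Il10 rose with IL-6 on IL-4 (log2 3.49 ± 0.31, adjusted p 6.29e-08, edgeR) and on IL-13 (log2 2.92 ± 0.30, adjusted p 7.86e-07), from means of 1.33 and 1.58 CPM to 14.9 and 12.1 CPM. Tnf fell with IL-6 in both (log2 -0.66 and -0.48, called). In all, 1 gene was higher and 1 lower with IL-6 on IL-4, beside 20.7% of all genes higher and 18.7% lower, and 3 were higher and 1 lower on IL-13, beside 12.1% and 13.5%.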
